A study of Mus with 15 samples.

Results

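The nuclear-encoded respiratory chain genes were followed across 5 gates of sorted mouse thymocytes. They were chosen by gene symbol alone, as the protein-coding genes whose symbols begin Nduf (followed by a, b, c, s or v and a digit), Sdha to Sdhd, Uqcr, Cox4 to Cox8 or Atp5. The rule named 87 symbols, with 18 pseudogenes left out, and 86 of them stood among the 55573 genes of the count table (Ndufb4b was not matched to a gene there). By complex they were 37 genes of complex I, 4 of complex II, 8 of complex III, 20 of complex IV and 17 of complex V. Ndufa4 and its relative Ndufa4l2 were placed in complex IV, where the NDUFA4 protein is now assigned. The filter on low counts left 79 of the 86.

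The respiratory chain sits in the inner mitochondrial membrane. Complex I (NADH dehydrogenase) and complex II (succinate dehydrogenase, which is also an enzyme of the citric acid cycle) pass electrons to ubiquinone, complex III passes them to cytochrome c, and complex IV (cytochrome c oxidase) hands them to oxygen. Complexes I, III and IV pump protons, and complex V (ATP synthase) makes ATP from the gradient. Most subunits are encoded in the nucleus, and a few core subunits of complexes I, III, IV and V in mitochondrial DNA. Regulatory T cells (Tregs) are known for a stronger reliance on oxidative phosphorylation than activated conventional T cells.

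All cells came from the thymus of female mice, 6 weeks old, of the strain given as C57Bl/6 x Foxp3-GFP, in which a fluorescent reporter marks Foxp3 (the lineage factor of Tregs). Every gate was TCRb+, CD4+, CD8- and CD73- and excluded dead cells, and each had 3 libraries, numbered 40, 42 and 43. The Bst2+ gate held Bst2+ cells that were CD25+, Foxp3+ or both. The other gates were Bst2-. Mature Tregs were CD25+ Foxp3+, CD25+ progenitors were CD25+ Foxp3-, FOXP3lo progenitors were CD25- Foxp3lo, and conventional CD4 single-positive (CD4SP) cells were CD25- Foxp3-. CD25, encoded by Il2ra, is the alpha subunit of the IL-2 receptor, and the 2 progenitor gates are the known precursors of thymic Tregs. The labels call the 3 libraries of a gate biological replicates of 1 experiment without saying whether each is a mouse or a pool, so p-values measure the spread between these samples.

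Libraries held 10816064 to 23758157 counted read pairs. The gates differed by their sorting markers for Foxp3 (532, 614 and 648 CPM, counts scaled to library size, in mature Tregs and 297, 272 and 301 CPM in FOXP3lo progenitors, against 0.522 to 4.19 CPM in the Foxp3- gates) and for Il2ra (1156, 1178 and 1120.3 CPM in mature Tregs and 295, 281 and 290.2 CPM in CD25+ progenitors, against 10.3, 7.45 and 9.45 CPM in conventional cells). The FOXP3lo progenitors, sorted as CD25-, had 104, 100.1 and 117 CPM of Il2ra, below every CD25+ progenitor library but above every conventional one. The Bst2+ replicates 40, 42 and 43 had 9.10, 28.1 and 40.2 CPM of Foxp3 and 261, 308 and 163 CPM of Il2ra. Bst2 RNA separated its gate poorly, at 50.3, 18.4 and 15.7 CPM in Bst2+ cells against 11.3 to 18.3 CPM in the others. The Bst2+ libraries stood apart. Their biological coefficient of variation (the typical relative spread of a gene between replicates) was 0.937, against 0.149 to 0.240 in the other gates, and mitochondrial ribosomal RNA took 14.1% to 19.6% of their counts, against 9.51% to 11.7% elsewhere. The defining T cell genes were present in every gate, with a summed level of 2961 to 3211 CPM over 8 genes in Bst2+ cells and 2356 to 3669 CPM in the others, and 7 of the 8 were lower both in mature Tregs and in CD25+ progenitors than in conventional cells. Because bulk RNA was measured, fewer cells of a type and less RNA per cell cannot be told apart.

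The members were abundant genes. The 79 tested members had a median level of 35.6 CPM, against 12.5 CPM over all genes tested. Summed over all 86, they made up 6781, 6379.5 and 5155 CPM in Bst2+ replicates 40, 42 and 43. The same sum was 4438, 4739.6 and 4206 CPM in mature Tregs and 4944, 5204 and 5497 CPM in CD25+ progenitors. In FOXP3lo progenitors it was 3807, 3604 and 3705 CPM, and in conventional cells 3809, 4416 and 4322 CPM. The CD25+ progenitors lay above every library of the other Bst2- gates, and the FOXP3lo progenitors below all of them, conventional replicate 40 by the narrowest margin. Among the 4 Bst2- gates, CD25+ progenitors had the highest mean for 63 of 79 members and FOXP3lo progenitors the lowest for 65 of 79.

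**Figure D1:**
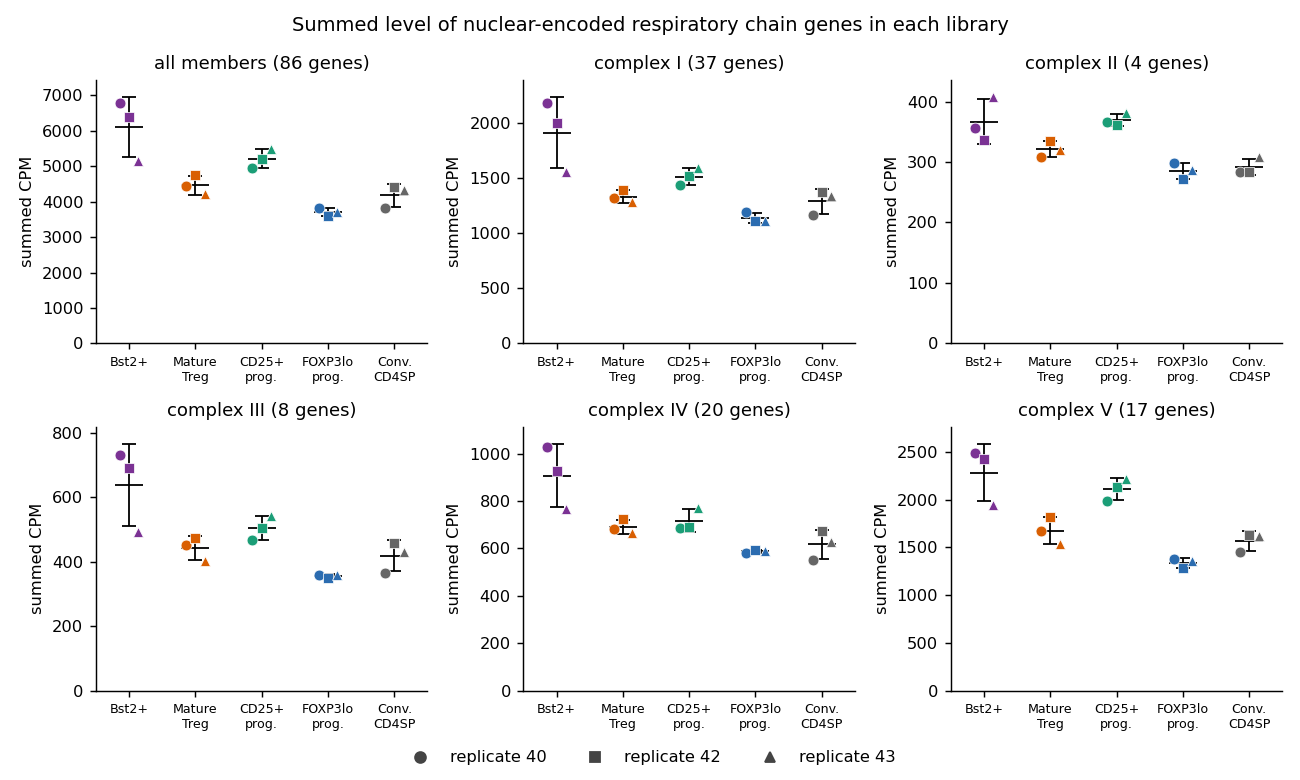
Summed CPM of the members in each library (points, shaped by replicate number), for all 86 members and for each complex, with bars for the mean and SD of the 3 libraries of a gate. CD25+ progenitors averaged 5215 ± 277 CPM over all members and FOXP3lo progenitors 3705 ± 102 CPM, and the Bst2+ libraries were the most spread at 6105 ± 847 CPM.

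In summed CPM, complex V showed the widest gap between the 2 progenitor gates and complex IV, which holds Cox7a2l, the narrowest. The 17 complex V genes summed to 2112 ± 115 CPM in CD25+ progenitors and 1335 ± 50.2 CPM in FOXP3lo progenitors (SD, n = 3 each), a ratio of 1.58. For complex IV the ratio was 1.22, for complex II 1.29, for complex I 1.33 and for complex III 1.41. By the median log2 difference of the tested members, complex IV came first instead, at 0.72, followed by complex V at 0.71, complex II at 0.66, complex III at 0.53 and complex I at 0.48. Levels per kilobase of exon (RPKM, CPM per kilobase) allow a rough comparison between genes. The length sums all annotated exons of a gene, not those of 1 transcript. Genes with long annotations, such as Atp5g1 with 4912 bases, may therefore read too low. By this measure the highest member in conventional cells was Atp5a1, which encodes the alpha subunit of the ATP synthase head, at a mean of 112 RPKM. Atp5c1 followed at 81.2 RPKM (the gamma subunit, the central shaft), then Atp5b at 79.4 RPKM (the catalytic beta subunit) and Cox4i1 at 76.4 RPKM. The median member of complex IV stood at 30.9 RPKM in mature Tregs, 42.6 RPKM in CD25+ progenitors, 24.7 RPKM in FOXP3lo progenitors and 33.5 RPKM in conventional cells. The median member of complex I was lower in each of these gates, at 19.6 RPKM in mature Tregs, 25.2 RPKM in CD25+ progenitors, 17.2 RPKM in FOXP3lo progenitors and 20.5 RPKM in conventional cells.

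**Figure D2:**
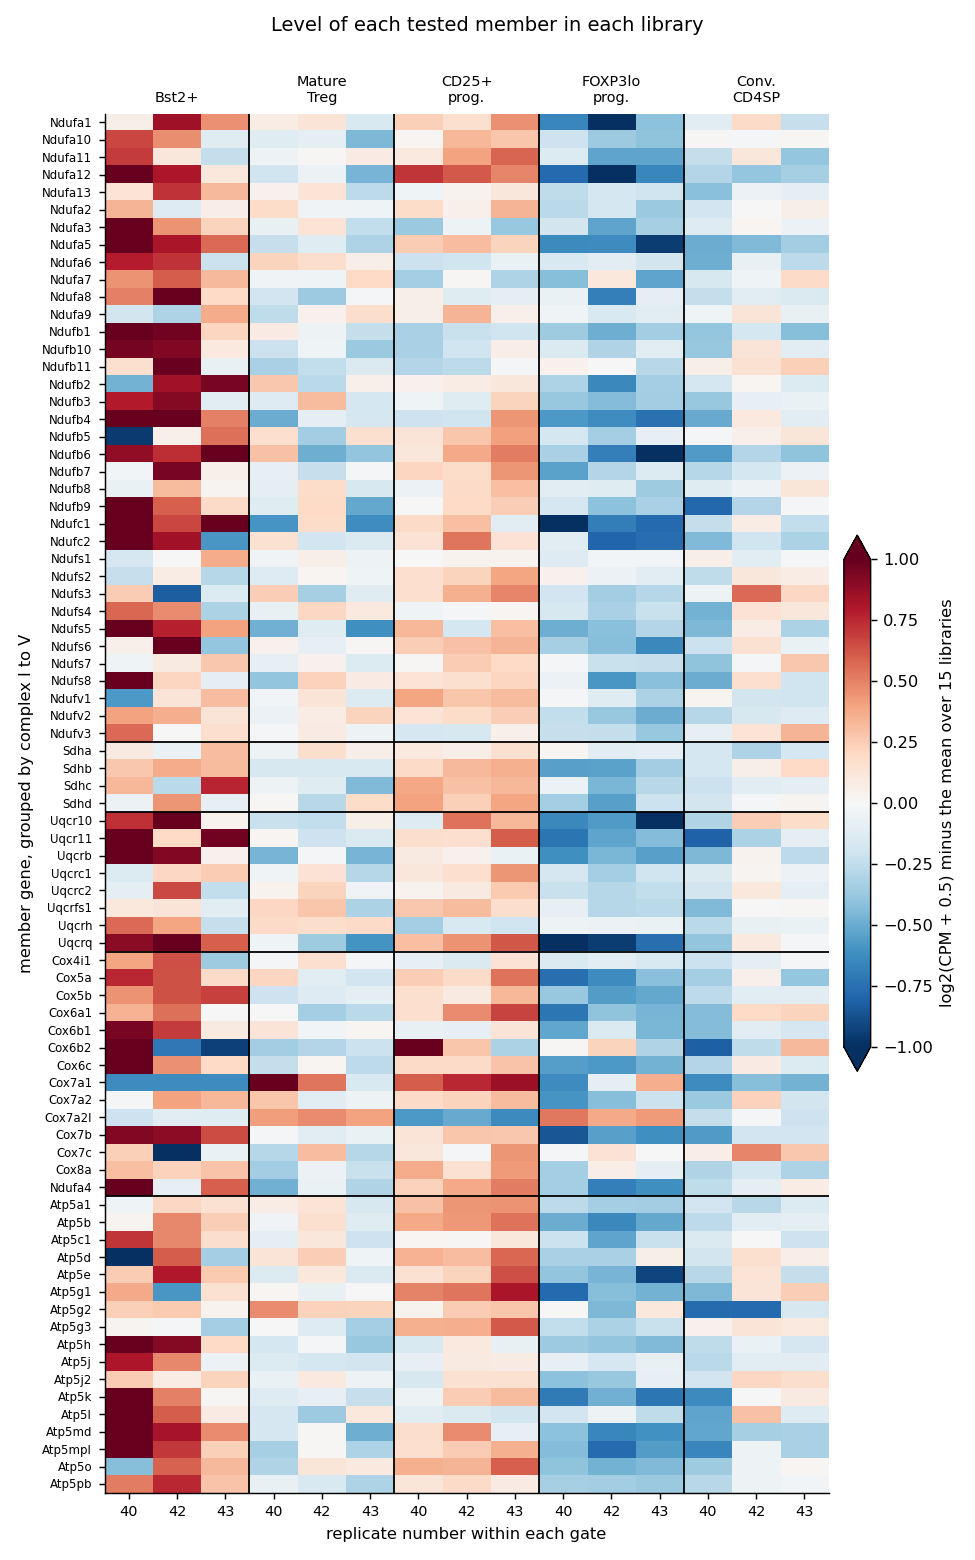
Level of each of the 79 tested members (vertical) in each of the 15 libraries (horizontal), as log2(CPM + 0.5) minus the gene's mean over the libraries, red above and blue below. The CD25+ progenitor libraries were high and the FOXP3lo progenitor libraries low for most members, Cox7a2l showed the reverse, and Bst2+ replicates 40 and 42 were both higher than replicate 43 for 21 of 36 complex I genes.

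CD25+ progenitors had more respiratory chain RNA than conventional CD4SP cells. Of 79 members, 37 rose and 2 fell (edgeR's quasi-likelihood test on the 12 Bst2- libraries, Benjamini-Hochberg adjusted p under 0.05 over 15648 genes), against 14.7% of all genes tested higher and 14.3% lower. The median member was 0.33 higher on the log2 scale, against −0.01 for all genes tested. The change was found in every complex, with 11 of 17 tested members of complex V, 4 of 4 of complex II, 4 of 8 of complex III, 8 of 14 of complex IV and 10 of 36 of complex I higher. Without Cox7a1, which had very few counts, the called increases ranged from 0.25 to 0.96 on the log2 scale, and none reached 2-fold. The CD25+ progenitor libraries lay wholly above the conventional ones for 42 members and wholly below for 2, against 20.3% and 20.7% of all genes tested.

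In ATP synthase both the catalytic head and the c ring rose. Atp5b (ENSMUSG00000025393, chr10:128083273-128090391, plus strand, GRCm38) had 485, 503 and 545 CPM in CD25+ progenitors, against 311, 347 and 351 CPM in conventional cells. All 3 progenitor libraries were above all 3 conventional ones, with a log2 difference of 0.60 ± 0.07 (SE; edgeR adjusted p = 5.10e-09). Atp5a1 behaved alike, at 497, 549 and 552 CPM in CD25+ progenitors against 354, 334 and 369 CPM in conventional cells (log2 0.60 ± 0.07, edgeR adjusted p = 3.46e-09). Of the 5 head genes 4 rose, and all 3 genes of the proton-carrying c ring (Atp5g1, Atp5g2 and Atp5g3) rose, against 14.7% of all genes tested.

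In complex I the largest called increase was that of Ndufa12 (ENSMUSG00000020022, chr10:94198720-94221443, plus strand), an accessory subunit added late in assembly. It had 44.1, 40.99 and 37.7 CPM in CD25+ progenitors and 21.6, 20.3 and 21.1 CPM in conventional cells, with no overlap (log2 0.96 ± 0.15, edgeR adjusted p = 2.01e-06). Ndufa5, another accessory subunit, had 42.8, 44.4 and 41.8 CPM in CD25+ progenitors and 25.2, 26.2 and 27.99 CPM in conventional cells (log2 0.70 ± 0.13, edgeR adjusted p = 3.44e-05). Of the 7 nuclear core subunits 3 rose, and of the 29 accessory subunits 7 rose and 1 fell, against 14.7% and 14.3% of all genes tested. The one that fell was Ndufb11, an X-linked accessory subunit of the membrane arm, at 30.5, 31.2 and 37.1 CPM in CD25+ progenitors against 39.1, 41.8 and 44.3 CPM in conventional cells (log2 −0.34 ± 0.12, edgeR adjusted p = 0.0356). Leaving out CD25+ replicate 40 or 42, conventional replicate 42 or 43, or FOXP3lo replicate 40 ended that call, with log2 differences of −0.29, −0.30, −0.34, −0.29 and −0.32.

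All 4 genes of succinate dehydrogenase rose. Sdha, the flavin-carrying catalytic subunit, had 214, 209 and 222 CPM in CD25+ progenitors against 176, 161 and 177 CPM in conventional cells, without overlap (log2 0.33 ± 0.07, edgeR adjusted p = 0.000300). Sdhc, one of the membrane anchors, had 44.1, 41.3 and 42.5 CPM against 28.8, 30.98 and 31.4 CPM in conventional cells (log2 0.49 ± 0.13, edgeR adjusted p = 0.00340). Sdhd, the other anchor, had 38.02, 33.9 and 37.8 CPM in CD25+ progenitors and 25.1, 28.3 and 29.2 CPM in conventional cells (log2 0.41 ± 0.14, edgeR adjusted p = 0.0218). Its call was lost without CD25+ replicate 40 or 43 or conventional replicate 40 (log2 0.38, 0.39 and 0.35). The iron-sulfur subunit gene Sdhb overlapped between the gates, at 70.1, 76.8 and 78.6 CPM in CD25+ progenitors and 54.1, 63.8 and 70.5 CPM in conventional cells (log2 0.26 ± 0.10, edgeR adjusted p = 0.0448). That call was the weakest of the 4. It was lost without either of 2 CD25+ replicates (42 and 43; log2 0.25 and 0.23), conventional replicate 40 or 42 (0.16 and 0.27) or FOXP3lo replicate 42 or 43 (0.26 for both).

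In complex III, Uqcrq (ENSMUSG00000044894, chr11:53427922-53430831, minus strand), a small subunit near the ubiquinone site, had 77.1, 85.6 and 96.5 CPM in CD25+ progenitors and 47.4, 66.9 and 61.5 CPM in conventional cells (log2 0.57 ± 0.13, edgeR adjusted p = 0.000603). Uqcr11, the smallest subunit, had 19.9, 19.8 and 27.1 CPM against 9.83, 14.1 and 16.5 CPM in conventional cells (log2 0.74 ± 0.19, edgeR adjusted p = 0.00257). Both were higher in 3 of 3 progenitor libraries without overlap. In complex IV, the X-linked subunit gene Cox7b had 74.99, 83.1 and 82.8 CPM in CD25+ progenitors and 46.03, 60.03 and 59.8 CPM in conventional cells (log2 0.54 ± 0.10, edgeR adjusted p = 6.10e-05). Cox7a2l fell in the same comparison and is described with its family further on.

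The number of calls depended strongly on which libraries set the spread. Fitted with the variable Bst2+ libraries, 10 of 79 members passed in place of 39, 9 higher and 1 lower, with nearly the same median of 0.32. The share of all genes called in that fit is not given here, so the count of 10 cannot be set against it. Of the members named for this comparison, Ndufa12, Sdha, Cox7a2l, Cox7b, Atp5a1 and Atp5b kept their calls in that fit, while Ndufa5, Ndufb11, Sdhb, Sdhc, Sdhd, Uqcrq and Uqcr11 lost theirs (adjusted p of 0.0554 to 0.442). Without conventional replicate 40, the library lowest in summed level of its gate, 25 members passed and the median was 0.23. Markers of proliferating cells overlapped between these gates, at a summed level of 474 to 613 CPM over 10 genes in CD25+ progenitors and 496 to 558 CPM in conventional cells. Markers of CD8 and double-positive thymocytes summed to 176 to 223 CPM over 7 genes in CD25+ progenitors and 79.5 to 119.5 CPM in conventional cells. Of the 7, 4 were higher and 2 lower. Rag1 and Dntt made up most of the sum in CD25+ progenitors. Cd8a overlapped, at 11.3, 17.9 and 24.1 CPM against 9.14, 13.9 and 27.2 CPM in conventional cells. The part of these markers in the result was not tested.

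Among the Bst2- gates the difference was widest between the 2 progenitor gates. In CD25+ progenitors against FOXP3lo progenitors, 56 of 79 members rose and 1 fell, against 19.9% and 19.7% of all genes tested, and the median member was 0.54 higher on the log2 scale. Higher members were 23 of 36 in complex I, 3 of 4 in complex II, 7 of 8 in complex III, 9 of 14 in complex IV and 14 of 17 in complex V. The libraries did not overlap for 66 members, 64 above and 2 below, against 25.3% and 25.0% of all genes tested. Uqcrq, at 77.1, 85.6 and 96.5 CPM in CD25+ progenitors and 28.7, 32.1 and 36.7 CPM in FOXP3lo progenitors, differed by 1.41 ± 0.13 on the log2 scale (edgeR adjusted p = 5.20e-11). Ndufa12 differed by 1.49 ± 0.15 (edgeR adjusted p = 1.29e-10) and Atp5b by 1.01 ± 0.07 (edgeR adjusted p = 3.82e-15). In all, 9 of the called increases exceeded 2-fold. With the Bst2+ libraries in the fit 31 members passed, 30 higher and 1 lower. Proliferation markers moved with this difference, at 474 to 613 CPM in CD25+ progenitors and 176 to 184 CPM in FOXP3lo progenitors, with 8 of 10 higher. CD8 and double-positive markers had 176 to 223 CPM against 48.4 to 53.0 CPM, with 6 of 7 higher and 1 lower. The part of either in the result was not tested.

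**Figure D3:**
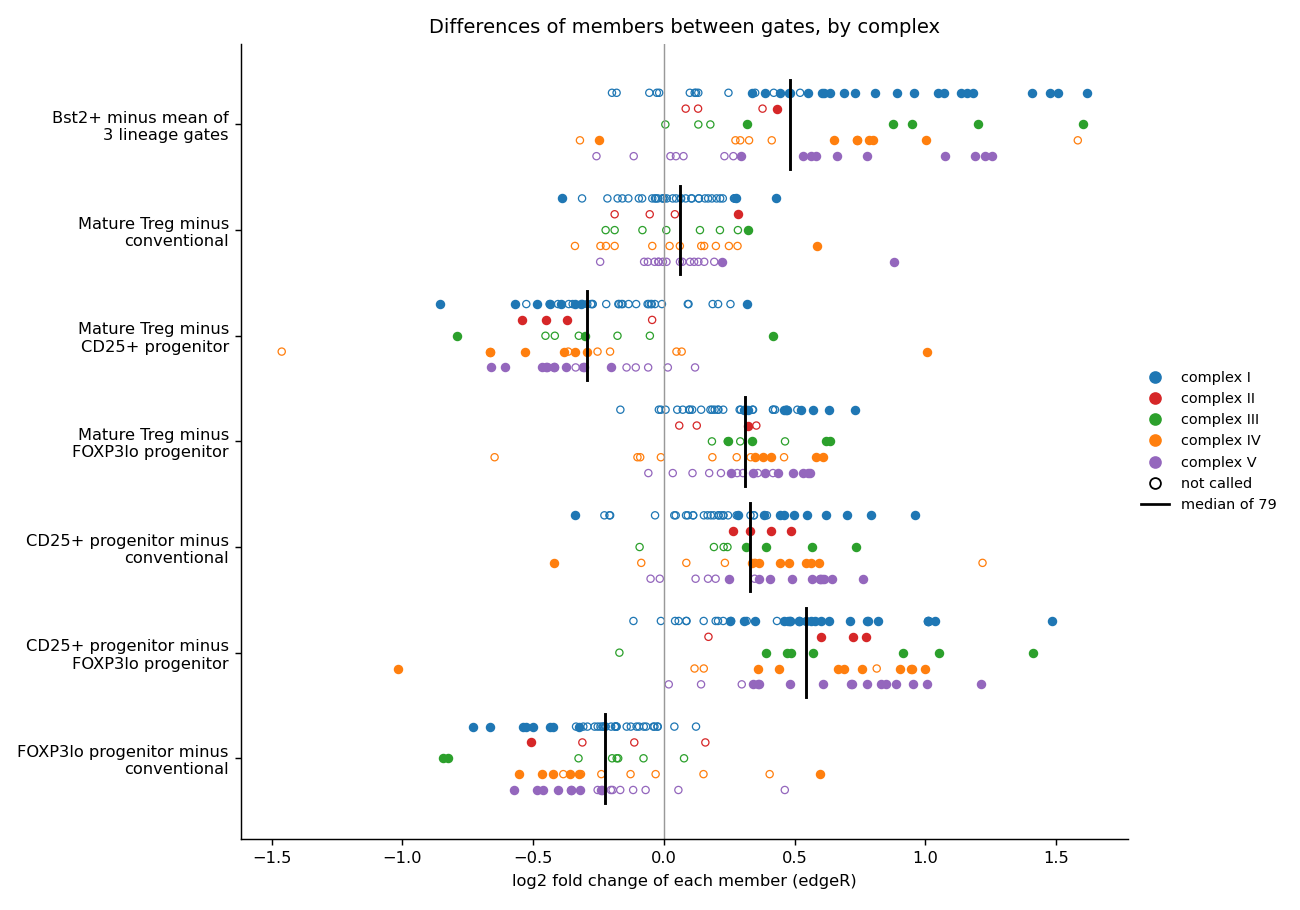
Log2 fold change of 78 tested members (Cox7a1 is left out for its few counts) in 7 comparisons, coloured by complex, with filled points for an adjusted p under 0.05 and a black line at the median of 79 members. The medians were 0.48 for Bst2+ cells against the mean of the 3 lineage gates and 0.54 for CD25+ against FOXP3lo progenitors, and lay near 0 (0.06) for mature Tregs against conventional cells.

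FOXP3lo progenitors had less respiratory chain RNA than conventional cells. Of 79 members 25 fell and 1 rose, against 12.3% and 12.8% of all genes tested, and the median member was −0.22 on the log2 scale. Lower members were 9 of 17 in complex V, 5 of 14 in complex IV, 8 of 36 in complex I, 2 of 8 in complex III and 1 of 4 in complex II. The called decreases ranged from 0.23 to 0.84 in size on the log2 scale. FOXP3lo libraries lay wholly below the conventional ones for 31 members, against 20.2% of all genes tested, and wholly above for 2, against 19.3%.

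Complex III held the steepest decreases. Uqcrq fell to 28.7, 32.1 and 36.7 CPM in FOXP3lo progenitors, against 47.4, 66.9 and 61.5 CPM in conventional cells (log2 −0.84 ± 0.13, edgeR adjusted p = 4.55e-06). Uqcr10, another small subunit, had 12.1, 12.9 and 8.94 CPM against 15.5, 22.9 and 21.9 CPM in conventional cells (log2 −0.82 ± 0.19, edgeR adjusted p = 0.000982). Neither overlapped. In complex V, Atp5b had 264, 239 and 261 CPM in FOXP3lo progenitors and 311, 347 and 351 CPM in conventional cells (log2 −0.40 ± 0.07, edgeR adjusted p = 2.24e-05). Atp5g3, one of the 3 c ring genes, had 43.1, 41.1 and 43.8 CPM against 52.8, 56.1 and 54.8 CPM in conventional cells (log2 −0.35 ± 0.11, edgeR adjusted p = 0.0101). Atp5a1, by contrast, overlapped at 338, 319 and 318 CPM against 354, 334 and 369 CPM in conventional cells, with a log2 difference of −0.12 ± 0.07 that did not pass (edgeR adjusted p = 0.244).

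In complex I, Ndufc1, a small accessory subunit, had 8.76, 11.6 and 10.9 CPM in FOXP3lo progenitors and 16.1, 20.03 and 15.9 CPM in conventional cells (log2 −0.73 ± 0.20, edgeR adjusted p = 0.00573). Ndufv3, an accessory subunit of the NADH-binding module, had 35.7, 35.4 and 32.1 CPM against 39.6, 46.1 and 53.1 CPM in conventional cells (log2 −0.43 ± 0.12, edgeR adjusted p = 0.00581). The first call was lost without FOXP3lo replicate 40 (log2 −0.61) and the second without conventional replicate 43 (log2 −0.31). In complex IV, Cox6c had 77.99, 76.5 and 82.3 CPM in FOXP3lo progenitors and 93.04, 121 and 104 CPM in conventional cells (log2 −0.42 ± 0.09, edgeR adjusted p = 0.000283). Sdhb was the only succinate dehydrogenase gene called, at 41.9, 42.2 and 48.03 CPM in FOXP3lo progenitors against 54.1, 63.8 and 70.5 CPM in conventional cells (log2 −0.51 ± 0.10, edgeR adjusted p = 0.000153). Sdha, Sdhc and Sdhd had log2 differences of 0.16, −0.11 and −0.31 that did not pass. The single member that rose was Cox7a2l.

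Fitted with the Bst2+ libraries 4 members passed, 3 lower (Uqcrq, Sdhb and Atp5b) and 1 higher (Cox7a2l). Scaling by library totals gave 41, 40 lower and 1 higher. That scaling moved the median of all genes tested to −0.12 in this comparison, against −0.01 with TMM scaling, and that of the members to −0.33. Leaving out conventional replicate 42 or 43 or FOXP3lo replicate 40 or 42 left 12, 14, 16 and 16 members. Proliferation markers summed to 176 to 184 CPM in FOXP3lo progenitors and 496 to 558 CPM in conventional cells, with 8 of 10 lower. CD8 and double-positive markers summed to 48.4 to 53.0 CPM in FOXP3lo progenitors and 79.5 to 119.5 CPM in conventional cells, with 3 of 7 lower. The part of either in the result was not tested.

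Few members separated mature Tregs from conventional cells. Of 79 members 8 rose and 1 fell, against the 15.1% and 15.3% of all genes tested, and the median member was 0.06 higher on the log2 scale. This small median was not stable in sign, since it was −0.05 with library totals, which called 5 members higher and 7 lower and moved the median of all genes tested to −0.12, and −0.02 without conventional replicate 40. Summed over all members the level was 4461 ± 268 CPM in mature Tregs and 4182 ± 326 CPM in conventional cells (SD, n = 3 each). The libraries of the 2 gates lay apart for 14 members, 11 above and 3 below, against 19.7% and 20.5% of all genes tested.

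The members that passed were scattered over the complexes. Atp5g2, one of the 3 genes for the c ring, had 23.3, 19.7 and 19.6 CPM in mature Tregs and 9.59, 9.53 and 14.9 CPM in conventional cells, without overlap (log2 0.88 ± 0.19, edgeR adjusted p = 0.000365). Uqcrh, the hinge protein of complex III, had 104, 103 and 104 CPM against 75.5, 86.8 and 87.3 CPM in conventional cells (log2 0.32 ± 0.08, edgeR adjusted p = 0.00249). Ndufa6, an accessory subunit of complex I, had 59.9, 58.1 and 53.5 CPM in mature Tregs against 36.4, 48.6 and 42.8 CPM in conventional cells (log2 0.43 ± 0.11, edgeR adjusted p = 0.00223). Sdha was also higher, at 193, 225 and 208 CPM against 176, 161 and 177 CPM in conventional cells (log2 0.28 ± 0.07, edgeR adjusted p = 0.00168), though not when scaled by library totals (log2 0.18, adjusted p = 0.0549). Sdhb, Sdhc and Sdhd had log2 differences of −0.19, −0.05 and 0.04 that did not pass.

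Atp5a1 overlapped, at 426, 446 and 363 CPM in mature Tregs and 354, 334 and 369 CPM in conventional cells (log2 0.22 ± 0.07, edgeR adjusted p = 0.0111). Its call was lost with library totals (log2 0.11) and without conventional replicate 42 or mature Treg replicate 40 or 42 (log2 0.18, 0.20 and 0.16). The member that fell was Ndufb11, at 29.8, 31.6 and 33.99 CPM in mature Tregs against 39.1, 41.8 and 44.3 CPM in conventional cells (log2 −0.39 ± 0.13, edgeR adjusted p = 0.0152). It was not called without conventional replicate 43 or mature Treg replicate 40 (log2 −0.35 for both). With the Bst2+ libraries in the fit 2 members passed, Cox7a2l and Atp5g2, both higher.

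Against CD25+ progenitors, mature Tregs were lower. Of 79 members 29 fell and 3 rose, against 16.8% and 15.9% of all genes tested, with a median of −0.30 on the log2 scale. Lower members were 11 of 17 in complex V, 3 of 4 in complex II, 6 of 14 in complex IV, 7 of 36 in complex I and 2 of 8 in complex III. Mature Treg libraries lay wholly below for 31 members and wholly above for 3, against 21.5% and 19.8% of all genes tested.

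Among these, Ndufa12 fell to 23.2, 25.5 and 19.2 CPM in mature Tregs, against 44.1, 40.99 and 37.7 CPM in CD25+ progenitors (log2 −0.86 ± 0.15, edgeR adjusted p = 1.58e-05). Ndufa10, an accessory subunit of the complex I membrane arm, had 68.6, 70.2 and 54.7 CPM against 75.9, 94.5 and 90.7 CPM in CD25+ progenitors (log2 −0.43 ± 0.10, edgeR adjusted p = 0.000630). Uqcrq had 60.6, 48.7 and 41.1 CPM in mature Tregs and the values already given in CD25+ progenitors (log2 −0.79 ± 0.13, edgeR adjusted p = 7.11e-06). None of these overlapped. Atp5g3 had 51.04, 46.8 and 40.5 CPM in mature Tregs and 65.9, 66.02 and 78.6 CPM in CD25+ progenitors (log2 −0.61 ± 0.11, edgeR adjusted p = 1.14e-05), and Cox6c had 96.7, 116 and 95.4 CPM against 130.3, 131 and 139 CPM (log2 −0.38 ± 0.09, edgeR adjusted p = 0.000727). Atp5b, the catalytic subunit, had 364, 417 and 342 CPM in mature Tregs, all below CD25+ progenitors (log2 −0.45 ± 0.07, edgeR adjusted p = 2.39e-06).

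In succinate dehydrogenase, Sdhb had 54.7, 55.1 and 55.2 CPM in mature Tregs and 70.1, 76.8 and 78.6 CPM in CD25+ progenitors (log2 −0.45 ± 0.10, edgeR adjusted p = 0.000502). Sdhc had 32.4, 30.9 and 24.7 CPM against 44.1, 41.3 and 42.5 CPM in CD25+ progenitors (log2 −0.54 ± 0.13, edgeR adjusted p = 0.00121). For the other membrane anchor, Sdhd, the log2 difference of −0.37 ± 0.14 (edgeR adjusted p = 0.0392) was lost without CD25+ replicate 40 or 43 or mature Treg replicate 40 or 42 (log2 −0.34, −0.35, −0.38 and −0.25). The catalytic subunit gene Sdha was not called, with 193, 225 and 208 CPM in mature Tregs and 214, 209 and 222 CPM in CD25+ progenitors (log2 −0.04 ± 0.07, edgeR adjusted p = 0.693).

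The 3 members that rose were Cox7a2l, Uqcrh and Ndufa6. Uqcrh had 104, 103 and 104 CPM in mature Tregs and 72.03, 82.1 and 79.4 CPM in CD25+ progenitors (log2 0.42 ± 0.08, edgeR adjusted p = 0.000122). Ndufa6 had 59.9, 58.1 and 53.5 CPM against 44.1, 44.6 and 48.9 CPM in CD25+ progenitors (log2 0.32 ± 0.11, edgeR adjusted p = 0.0229), a call lost with library totals (log2 0.21) and without CD25+ replicate 40 or 42 or mature Treg replicate 40 or 42 (log2 0.29, 0.29, 0.28 and 0.30). With the Bst2+ libraries in the fit 7 members passed, 6 lower and 1 higher, among them Sdhb, Uqcrq, Atp5b, Atp5g3 and Cox7a2l of those named. Without CD25+ replicate 43, the highest of its gate in summed level, 21 members passed, 18 lower and 3 higher. Proliferation markers summed to 181 to 227 CPM in mature Tregs and 474 to 613 CPM in CD25+ progenitors, with 9 of 10 lower. CD8 and double-positive markers summed to 59.6 to 60.6 CPM in mature Tregs and 176 to 223 CPM in CD25+ progenitors, with 5 of 7 lower. The part of either in the result was not tested.

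Against FOXP3lo progenitors, mature Tregs were higher. Of 79 members 27 rose, against 9.37% of all genes tested, and 0 fell, against 9.29% (0 also at an unadjusted p under 0.05 in edgeR, and 0 by DESeq2 and by limma-voom). The median member was 0.31 higher on the log2 scale, with 8 of 17 members higher in complex V, 4 of 8 in complex III, 5 of 14 in complex IV, 9 of 36 in complex I and 1 of 4 in complex II. Atp5b had 364, 417 and 342 CPM in mature Tregs against 264, 239 and 261 CPM in FOXP3lo progenitors (log2 0.56 ± 0.07, edgeR adjusted p = 9.12e-08). Cox7b had 67.9, 63.3 and 65.3 CPM in mature Tregs and 37.6, 46.7 and 44.6 CPM in FOXP3lo progenitors (log2 0.61 ± 0.11, edgeR adjusted p = 3.03e-05). Neither gene overlapped between the gates. Mature Treg libraries lay wholly above for 40 members, against 15.7% of all genes tested, and wholly below for 0, against 16.3%. Proliferation markers summed here to 181 to 227 CPM in mature Tregs and 176 to 184 CPM in FOXP3lo progenitors, with 1 of 10 higher. CD8 and double-positive markers summed to 59.6 to 60.6 CPM in mature Tregs and 48.4 to 53.0 CPM in FOXP3lo progenitors, with 3 of 7 higher and 1 lower, and 7 of 8 T cell identity genes were lower in mature Tregs. The part of these in the result was not tested. With the Bst2+ libraries in the fit 4 members passed, all higher, and without FOXP3lo replicate 42 or 43 the counts were 15 and 17.

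The 4 Bst2- gates form a square of sorted CD25 and FOXP3, in which the CD25- FOXP3lo gate still had Il2ra RNA, so the difference between CD25 gates can be taken once among FOXP3+ cells (mature Tregs minus FOXP3lo progenitors) and once among Foxp3- cells (CD25+ progenitors minus conventional cells), with no library in common. The median member was 0.31 higher in the first and 0.33 higher in the second. In total, 16 members rose in both comparisons, 59.3% of the 27 higher among FOXP3+ cells and 43.2% of the 37 higher among Foxp3- cells. Over all genes tested the same shares were 60.4% and 38.5%, close to those of the members. Of all 79 members 46.8% were among the 37 and 34.2% among the 27. They included Atp5a1, Atp5b, Cox7b, Ndufa12, Ndufa5, Sdhb and Uqcrq. Likewise 15 members fell both in mature Tregs against CD25+ progenitors and in FOXP3lo progenitors against conventional cells, 51.7% of 29 and 60.0% of 25, against 47.3% and 64.6% over all genes tested. The difference between the 2 CD25 differences had a median of −0.01 on the log2 scale over 79 members and lay within 0.5 of 0 for 74 of them, with a median SE of 0.19.

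A difference between the CD25 contrasts passed for 3 members, 2 higher and 1 lower, against 5.46% and 5.39% of all genes tested, and for 0 with the Bst2+ libraries in the fit (3 there at an unadjusted p under 0.05, against 10 of 79 without the Bst2+ libraries; DESeq2 called 4 and limma-voom 2). Leaving out conventional replicate 42 or FOXP3lo replicate 42 gave 1 call each, and leaving out conventional replicate 40 gave 5. Cox7a2l had an interaction of 0.41 ± 0.11 (edgeR adjusted p = 0.00956), Ndufv3 of 0.52 ± 0.17 (edgeR adjusted p = 0.0390) and Cox8a, the ubiquitous form of a small complex IV subunit, of −0.68 ± 0.20 (edgeR adjusted p = 0.0172). Cox8a was named after its values were seen. It had 23.1, 28.2 and 25.2 CPM in mature Tregs and 23.2, 30.8 and 27.5 CPM in FOXP3lo progenitors, overlapping, but 38.1, 32.7 and 39.8 CPM in CD25+ progenitors against 23.8, 25.99 and 23.7 CPM in conventional cells, without overlap. Its call was lost without CD25+ replicate 43 or FOXP3lo replicate 42 (−0.63 and −0.58), and that of Cox7a2l without conventional replicate 42 (0.34, adjusted p = 0.0505). Ndufv3 kept its call in 2 of 12 fits with 1 library left out, and its lowest value, without conventional replicate 43, was 0.40.

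**Figure D4:**
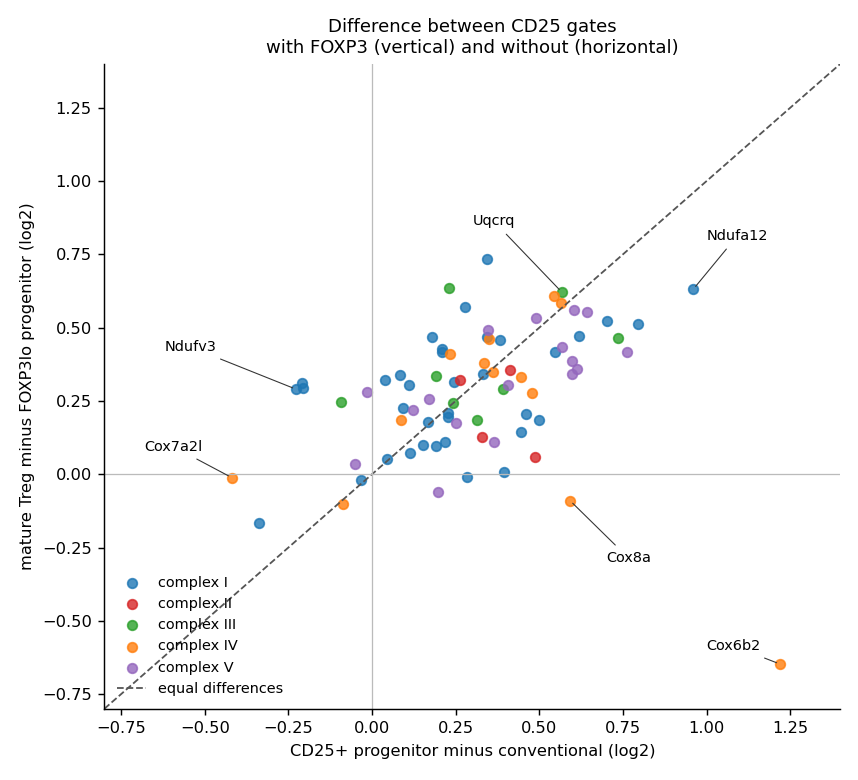
For 78 tested members (Cox7a1 is left out), the log2 difference between mature Tregs and FOXP3lo progenitors (vertical) against that between CD25+ progenitors and conventional cells (horizontal), coloured by complex, with a dashed line where both are equal. Most points lay in the upper right, and Cox7a2l, Ndufv3 and Cox8a were the members whose distance from the line passed the test. Cox6b2, with 140 read pairs in all libraries, lay farthest from it and did not pass (log2 −1.87 ± 1.64, edgeR adjusted p = 0.588).

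Cox7a2l went against the other members. It encodes SCAF1, a relative of the COX7A subunits studied for a role in respiratory supercomplexes. Only its RNA was measured here. Neither the allele carried by this strain, nor the SCAF1 protein, nor supercomplexes were examined. The gene lies at ENSMUSG00000024248, chr17:83501918-83517330, minus strand. Its level was 98.5, 106 and 105 CPM in Bst2+ cells, 152, 159 and 151 CPM in mature Tregs and 76.5, 80.4 and 73.1 CPM in CD25+ progenitors. FOXP3lo progenitors had 165, 148 and 153 CPM and conventional cells 96.8, 113 and 98.6 CPM. Thus both FOXP3+ gates lay above every conventional library, and CD25+ progenitors, the Bst2- gate richest in most other members, lay below them all.

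Mature Tregs exceeded conventional cells by 0.59 ± 0.08 in log2 units (edgeR adjusted p = 7.03e-08) and CD25+ progenitors by 1.01 ± 0.08 (edgeR adjusted p = 1.06e-13). It was lower in CD25+ progenitors than in conventional cells, at −0.42 ± 0.08 (edgeR adjusted p = 4.07e-05), and higher in FOXP3lo progenitors than in conventional cells, at 0.60 ± 0.08 (edgeR adjusted p = 6.47e-08). These 4 calls held under every alternative tried, the fit with Bst2+ libraries included. The 2 progenitor gates differed by −1.02 ± 0.08, CD25+ minus FOXP3lo (edgeR adjusted p = 3.96e-14). Mature Tregs and FOXP3lo progenitors overlapped, with a log2 difference of −0.01 ± 0.08 (edgeR adjusted p = 0.954).

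**Figure D5:**
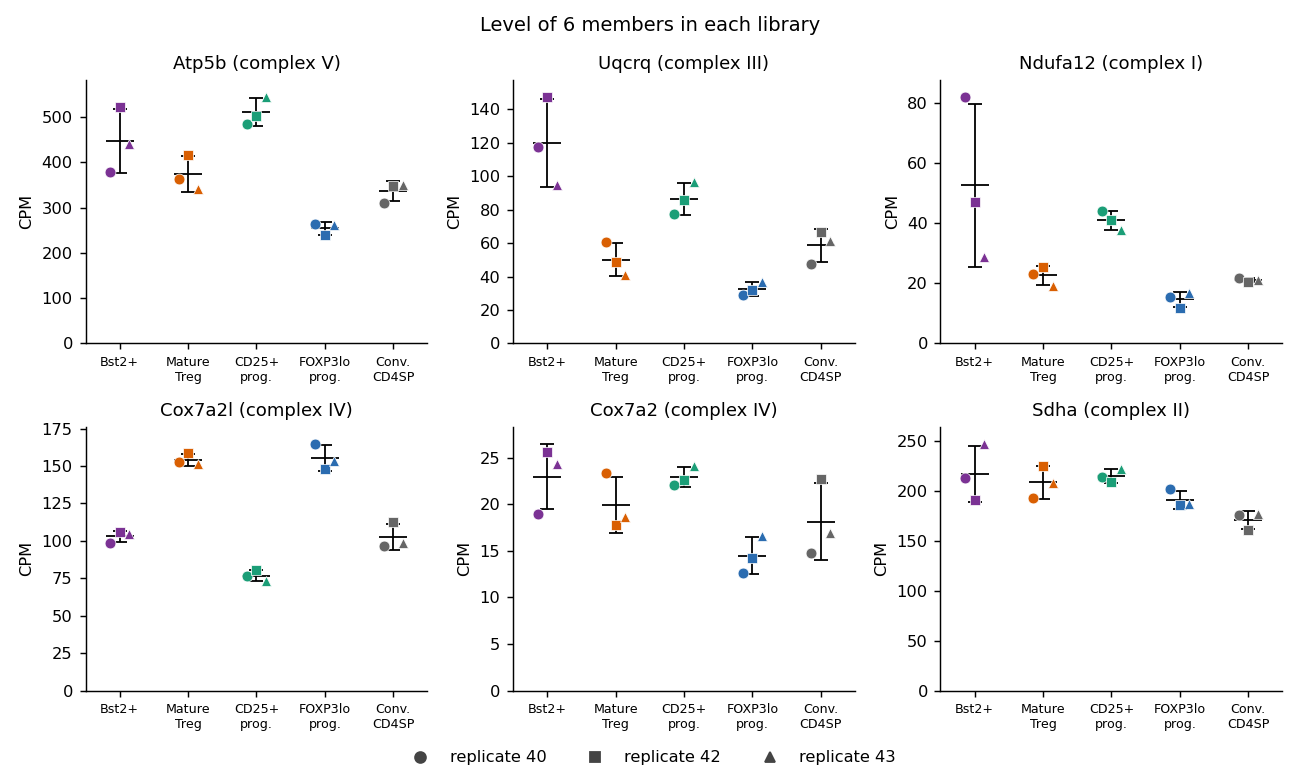
CPM of 6 members in each library (points, shaped by replicate number), with bars for the mean and SD of the 3 libraries of a gate. Atp5b, Uqcrq and Ndufa12 were high in CD25+ progenitors and low in FOXP3lo progenitors, Cox7a2l ran the other way with 148 CPM or more in every mature Treg and FOXP3lo library, and Sdha was lowest in conventional cells.

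Set against Cox7a2, the COX7A form found in most tissues, the balance between the 2 relatives shifted. The ratio of Cox7a2l to Cox7a2 per kilobase of exon was 3.32, 2.64 and 2.75 in Bst2+ replicates 40, 42 and 43, 4.16, 5.70 and 5.19 in mature Tregs and 2.21, 2.27 and 1.94 in CD25+ progenitors. It was 8.34, 6.67 and 5.90 in FOXP3lo progenitors and 4.19, 3.17 and 3.74 in conventional cells. CD25+ progenitors were below and FOXP3lo progenitors above every other Bst2- library. Cox7a1, the form of heart and muscle, was barely detected, with 86 read pairs in all 15 libraries. It had 44 read pairs in CD25+ progenitors and 2 in conventional cells, a ratio of 22.2 with a 95% counting interval of 5.79 to 189, and 27 in mature Tregs, a ratio of 17.8 to conventional cells (4.48 to 155). Although called in both comparisons (edgeR adjusted p = 0.0306 and 0.0419), it lost the second call in 10 of 12 fits with 1 library left out and with the replicate block (adjusted p = 0.0509). Intervals and floors cover counting error only.

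Of the other alternative forms, the ubiquitous one carried nearly all of the RNA. Cox4i1 averaged 84.9 RPKM in mature Tregs, against 0 RPKM for Cox4i2, the form known from lung and from low oxygen. Cox6a1 averaged 33.00 RPKM, and the muscle form Cox6a2 had 3 read pairs in all libraries. Cox6b1 averaged 57.6 RPKM and Cox6b2, a testis form, 0.256 RPKM in the same gate. Cox8a averaged 41.2 RPKM, while Cox8b and Cox8c had no counts in any library. Ndufa4 averaged 10.8 RPKM, and Ndufa4l2 had 24 read pairs in all. The c ring genes were led by Atp5g3 at 21.1 RPKM, followed by Atp5g2 at 12.5 and Atp5g1 at 2.84 RPKM.

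The 7 members that did not pass the filter were Cox4i2, Cox6a2, Cox7b2, Cox8b, Cox8c, Ndufa4l2 and Ndufb4c, with 0 to 81 read pairs over all libraries. Most of the Cox4i2 signal came from 1 library, with 5.27, 0.323 and 0 CPM in the Bst2+ replicates. Cox6b2, which passed the filter, was also uneven among the Bst2+ replicates, at 4.22, 0.0809 and 0 CPM.

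Bst2+ cells had the highest mean level of respiratory chain RNA and the widest spread between replicates. Set against the mean of mature Tregs, CD25+ progenitors and FOXP3lo progenitors, 45 of 79 members rose and 2 fell, against 19.3% and 19.8% of all genes tested (edgeR on 15 libraries, 16069 genes), and the median member was 0.48 higher on the log2 scale. With Cox7a1 at its bound the median was the same, 0.48. The biological coefficient of variation was 0.420 over the 15 libraries fitted and 0.937 within the Bst2+ gate. The SE and adjusted p of this comparison may therefore be too small. The Bst2+ gate had the highest mean of the 5 gates for 54 of 79 members. Only 16 members, however, had all 3 Bst2+ libraries above all 9 others, against 7.65% of all genes tested, and 0 had them all below, against 10.5%. Bst2+ replicate 43 had a summed level of 5155 CPM, within the CD25+ progenitor range of 4944 to 5497 CPM.

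The increase was uneven within the complexes. Of the 29 accessory subunits of complex I 22 rose, while of the 7 core subunits 1 rose, against 19.3% of all genes tested. The median accessory subunit was 0.63 higher on the log2 scale and the median core subunit 0.10. Of the other complexes, 5 of 8 members rose in complex III, 6 of 14 in complex IV, 10 of 17 in complex V and 1 of 4 in complex II. The counts for the core subunits and for complex II were close to the share of all genes tested. The 3 c ring genes had log2 values of −0.12 to 0.05 and were not called (edgeR, DESeq2 and limma-voom, 0 also at an unadjusted p under 0.05). Across the 79 members the log2 difference ran against exon length (Spearman's rho = −0.34, as a description, since the genes share libraries).

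The smallest adjusted p was that of Cox7b, at 131, 128 and 108 CPM in Bst2+ cells, with all 3 libraries above the 9 others, which ran from 37.6 to 83.1 CPM (log2 1.00 ± 0.10, edgeR adjusted p = 9.39e-07). Cox5b, another nuclear subunit of complex IV, had 90.2, 103 and 106 CPM in Bst2+ cells, against 44.5 to 83.3 CPM in the 3 lineage gates (log2 0.74 ± 0.09, edgeR adjusted p = 7.43e-06). Uqcrq overlapped with CD25+ progenitors, at 117, 147 and 94.8 CPM in Bst2+ cells against 28.7 to 96.5 CPM (log2 1.20 ± 0.14, edgeR adjusted p = 4.89e-06). In complex I, Ndufc1 had 61.8, 30.6 and 46.3 CPM against 8.76 to 23.6 CPM (log2 1.62 ± 0.21, edgeR adjusted p = 1.30e-05), and Ndufa5 had 144, 63.5 and 53.2 CPM against 18.3 to 44.4 CPM (log2 1.51 ± 0.20, edgeR adjusted p = 1.80e-05). The Ndufa5 values show how far the Bst2+ replicates lay from each other, and without replicate 40 its log2 difference was 0.93.

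The 2 members that fell were Cox7a2l, at −0.25 ± 0.08 (edgeR adjusted p = 0.0154), with libraries inside the range of the others, and Cox7a1. Cox7a1 had 0 read pairs in the Bst2+ libraries and 84 in the 9 others, at least 7.20-fold lower when the Bst2+ gate is given a floor of 3 counts. The Bst2+ libraries also had higher levels of markers of some other cell types and states. Proliferation markers summed to 1264 to 1557 CPM, against 176 to 613 CPM in the 3 lineage gates, with 10 of 10 higher. Markers of dendritic cells and macrophages summed to 688 to 984 CPM over 11 genes, against 15.6 to 56.1 CPM, with 9 of 9 tested higher, and Lyz2 had 115, 93.6 and 160.3 CPM against 0 to 1.96 CPM. Markers of CD8 and double-positive cells summed to 798 to 1308 CPM over 7 genes, against 48.4 to 223 CPM, with 5 of 7 higher. B cell markers summed to 3.55 to 20.4 CPM over 6 genes in Bst2+ cells, against 0.987 to 2.83 CPM, and gamma-delta T cell markers to 45.7 to 114 CPM over the 3 genes matched, against 9.62 to 16.3 CPM. Plasmacytoid dendritic cell markers, which include Bst2 itself, reached 125 to 134 CPM over 5 genes, against 47.8 to 88.1 CPM. Of these 2 of 4 tested were higher, and Siglech had 0, 0 and 1.45 CPM in Bst2+ replicates 40, 42 and 43. Epithelial and stromal markers summed to 7.57 to 40.7 CPM over 7 genes, against 2.63 to 13.1 CPM, and 6 erythroid markers to 0 to 1.25 CPM, against 0 to 0.324 CPM. Most of the epithelial and stromal sum was Epcam, at 40.7, 21.2 and 5.36 CPM in the Bst2+ replicates, and Krt5 had 0 CPM. The part of any of these in the higher level of the members was not tested.

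Genes that work beside the members were counted in the same fits, from lists of the pathway, and the genes named from them are among those with the smallest adjusted p. Atpif1 encodes the inhibitor of ATP hydrolysis by ATP synthase. It averaged 163 ± 51.98 CPM in Bst2+ cells, 66.6 ± 5.83 CPM in mature Tregs and 107 ± 1.37 CPM in CD25+ progenitors. FOXP3lo progenitors averaged 37.7 ± 2.49 CPM and conventional cells 46.4 ± 9.35 CPM (SD, n = 3 each). The CD25+ progenitors exceeded conventional cells by 1.22 ± 0.11 on the log2 scale (edgeR adjusted p = 4.76e-12) and FOXP3lo progenitors by 1.51 ± 0.11 (edgeR adjusted p = 7.91e-15). Mature Tregs also exceeded conventional cells, by 0.53 ± 0.11 (edgeR adjusted p = 0.000172). Of the 15 subunits and carriers outside the symbol pattern, to which Atpif1 belongs, 9 rose and 1 fell in CD25+ against FOXP3lo progenitors, where 19.9% and 19.7% of all genes tested did. The electron carrier cytochrome c (Cycs) was higher in CD25+ than in FOXP3lo progenitors by 1.28 ± 0.15 (edgeR adjusted p = 1.92e-09).

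Mitochondrial ribosomal protein genes, which serve the translation of mitochondrial messages, had a median of 0.56 on the log2 scale between the progenitor gates, where the members had 0.54. In CD25+ against FOXP3lo progenitors 50 of 75 rose and 1 fell, against 19.9% and 19.7% of all genes tested. In FOXP3lo progenitors against conventional cells 18 fell, against 12.3% of all genes tested. Of 17 citric acid cycle genes 12 were higher in CD25+ progenitors when set against conventional cells, where 14.7% of all genes tested were. When set against FOXP3lo progenitors 11 were, against 19.9% of all genes tested. Idh3a, a subunit of the NAD-dependent isocitrate dehydrogenase, averaged 65.6 ± 2.16 CPM in CD25+ progenitors and 31.8 ± 1.10 CPM in FOXP3lo progenitors (log2 1.05 ± 0.11, edgeR adjusted p = 8.76e-11). Of 45 assembly factors, CD25+ progenitors had 4 higher against conventional cells, a share below that of all genes tested. Set against FOXP3lo progenitors 13 were higher and 1 lower, against 19.9% and 19.7% of all genes tested. Ndufaf4, which acts in the assembly of complex I, was among those 13 (log2 1.13 ± 0.17, edgeR adjusted p = 3.46e-07).

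For the subunits encoded in mitochondrial DNA, the summed level was 12043 to 19247 CPM in Bst2+ cells and 8784 to 10221 CPM in mature Tregs. It was 7714 to 9470 CPM in CD25+ progenitors, 7383 to 8028 CPM in FOXP3lo progenitors and 7300 to 7683 CPM in conventional cells. Only part of the 13 subunits made up most of it, since COX2 had 4.93 to 25.4 CPM beside 1651 to 3525 CPM for COX1. COX3 (4.40 to 11.5 CPM), ATP6 (4.65 to 23.4 CPM), ATP8 (1.38 to 8.53 CPM) and ND4L (0.678 to 3.15 CPM) were also low. Read pairs of low mapping quality were not counted, and whether this lowered these values was not tested. The counts out of 13 and the medians below include these uncertain genes. In Bst2+ cells against the 3 lineage gates 12 of 13 were higher, against 19.3% of all genes tested. Their median there was 0.96, where the nuclear members had 0.48. In mature Tregs 6 of 13 were higher than in conventional cells, against 15.1% of all genes tested, with a median of 0.31 on the log2 scale, where the nuclear members had a median of 0.06. In CD25+ progenitors 3 of 13 were higher, against 14.7% of all genes tested, with a median of 0.12, where the nuclear members had 0.33. Whether these medians differ was not tested. ND1, a core subunit of complex I, was highest among the Bst2- gates in CD25+ progenitors, at 1479 ± 102 CPM, against 888 ± 21.9 CPM in FOXP3lo progenitors (log2 0.74 ± 0.07, edgeR adjusted p = 6.25e-12). COX1, the catalytic subunit of complex IV, was higher in mature Tregs, at 2182 ± 176 CPM, than in CD25+ progenitors, at 1795 ± 126 CPM (log2 0.28 ± 0.06, edgeR adjusted p = 0.000342).

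The 15 regulators of mitochondrial genes included Ppargc1a. It encodes PGC-1alpha, a coactivator of respiratory chain genes, and had 2.83, 6.86 and 2.70 CPM in CD25+ progenitors. It had 0 read pairs in the 3 mature Treg libraries, at least 59.3-fold lower than the 233 read pairs of the CD25+ progenitors with a floor of 3 counts over the gate. FOXP3lo progenitors had 2 read pairs (CD25+ over FOXP3lo ratio 113, 95% counting interval 31.1 to 942) and conventional cells 11 (ratio 21.4, 11.7 to 43.4). The Bst2+ replicates had 0, 0 and 3.15 CPM. Pprc1, a related coactivator, averaged 96.6 ± 5.50 CPM in CD25+ progenitors and 47.95 ± 7.92 CPM in FOXP3lo progenitors (log2 1.01 ± 0.12, edgeR adjusted p = 1.33e-08). Of the 15 regulators, 2 rose and 2 fell in CD25+ progenitors against conventional cells, where 14.7% and 14.3% of all genes tested did. Set against FOXP3lo progenitors 4 rose and 2 fell, where 19.9% and 19.7% of all genes tested did. The median regulator was −0.09 on the log2 scale in that comparison. In mature Tregs against conventional cells 4 regulators rose and 3 fell, against 15.1% and 15.3% of all genes tested. Myc took another order, at 107 ± 14.3 CPM in mature Tregs, 84.2 ± 6.49 CPM in CD25+ progenitors, 54.7 ± 1.64 CPM in FOXP3lo progenitors and 61.2 ± 6.66 CPM in conventional cells. It was higher in mature Tregs than in CD25+ progenitors by 0.35 ± 0.10 on the log2 scale (edgeR adjusted p = 0.00444), a comparison in which most called members fell.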

How the data were processed

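RNA from sorted thymocytes was made into SMARTer Stranded Total RNA Pico v2 libraries, per the labels' protocols. Each deposited table holds unnormalised counts (read pairs assigned to a gene), made by the authors with featureCounts 1.6.2, per the file headers, in reverse-stranded mode on Ensembl 97 (GRCm38), with both ends mapped and a mapping quality of at least 10. The submitters' processing notes also name Trimmomatic 0.33, HISAT2 2.1.0 and featureCounts 1.4.6. Read pairs below that quality were not counted, so members with near-identical copies (the Atp5g genes and those with pseudogenes) are uncertain. Of Atp5o 12.3% and of Ndufb9 19.5% of the exon length is shared with another gene on the same strand.

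The files give Ensembl IDs without symbols. Symbols were assigned by position from the RefSeq table of GRCm38.p6, which named 37395 of 55573 genes. Rules for nested genes and a second pass were added after first results were seen, because Cox7a2 had no match. Counts were tested with edgeR 4.0.16 (filterByExpr, TMM factors, robust quasi-likelihood fit, Benjamini-Hochberg adjustment over all genes tested, called at an adjusted p under 0.05) in R 4.3.3. Comparisons among the 4 Bst2- gates were fitted on their 12 libraries and the Bst2+ comparison on all 15. CPM values use TMM-scaled library sizes over 15 libraries, and RPKM values are these per kilobase of exon. Library totals were 10816064 to 23758157, and no pair of libraries looked like a repeat deposit (chi-square per gene of at least 7.63).

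Alternatives were DESeq2 1.42.0, limma-voom (limma 3.58.1), RLE, upper quartile, library-total and TMM scaling without mitochondrial genes, no low-count filter, the replicate number as a block, other libraries in the fit, and leaving out each library. Named members were, for each comparison with conventional cells and for mature Tregs against CD25+ progenitors, the 2 called members of each complex with the smallest adjusted p, called members against the majority (at most 5) and the Sdh genes. For Bst2+ cells they were the 5 smallest adjusted p. Related lists were named by up to 3 genes a comparison. Cox8a and other values of named members were added after values were seen. The members and lists were chosen with earlier results of these data known.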

Additional observations from a re-analysis of the deposited data

Results flagged for a closer look

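For 3 of 79 members the difference between CD25 gates was not the same among FOXP3+ and Foxp3- cells by the interaction test of edgeR. Of these 2 were higher and 1 lower, against 5.46% and 5.39% of all genes tested. Cox8a differed by −0.68 on the log2 scale, with a difference of −0.09 between mature Tregs and FOXP3lo progenitors and of 0.59 between CD25+ progenitors and conventional cells. Ndufv3 differed by 0.52, with 0.29 and −0.23 for the same 2 comparisons, and lost its call in 10 of 12 fits with 1 library left out. Cox7a2l differed by 0.41, with −0.01 and −0.42. With the Bst2+ libraries in the fit the same values were −0.68, 0.52 and 0.41, with adjusted p of 0.192, 0.442 and 0.147.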

How the results depend on the processing

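For the comparisons among the Bst2- gates, the libraries that entered the fit mattered most for the counts of members called. With the Bst2+ libraries included, 10 members were called for CD25+ progenitors against conventional cells and 31 for CD25+ against FOXP3lo progenitors. FOXP3lo progenitors against conventional cells had 4. Mature Tregs had 2 against conventional cells, 7 against CD25+ progenitors and 4 against FOXP3lo progenitors, and the interaction had 0. Of the 57 named values, 28 had been called in the main fit and lost that call. The 57 also hold Sdh values not called in the main fit. They further hold the Bst2+ values, for which this alternative left out conventional cells, so 28 of 57 is not a share of calls. For Bst2+ cells, fitted without conventional cells, the count was 45 in place of 47, and DESeq2 gave 54. Over 15 libraries the biological coefficient of variation was 0.420, against 0.184 over 12. Library totals gave 41 calls for FOXP3lo progenitors against conventional cells, 12 for mature Tregs against conventional cells and 45 for mature Tregs against CD25+ progenitors. Leaving out 1 library at a time gave 42 to 52 calls for Bst2+ cells, 7 to 11 for mature Tregs against conventional cells, 21 to 35 for mature Tregs against CD25+ progenitors, 15 to 28 for mature Tregs against FOXP3lo progenitors, 25 to 41 for CD25+ progenitors against conventional cells, 48 to 59 for CD25+ against FOXP3lo progenitors, 12 to 29 for FOXP3lo progenitors against conventional cells and 1 to 5 for the interaction. The cause of these shifts was not tested. Shares of all genes called under the alternatives are not given here, so these counts cannot be set against them. DESeq2, RLE scaling and TMM without mitochondrial genes kept the direction and the call, or lack of one, of all 57 named values. The same held for 55 with limma-voom, 56 with upper quartile scaling, 52 with no filter and 51 with library totals. No named call changed sign under any alternative.

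The replicate numbers were not shown to pair the samples. Deviations of same-numbered libraries correlated by −0.0104 to 0.0538 (18 pairs), against −0.0648 to 0.0331 for other pairs (36). With the replicate number as a block 45 members were called for Bst2+ cells, 9 for mature Tregs against conventional cells, 34 against CD25+ progenitors and 28 against FOXP3lo progenitors, 40 for CD25+ progenitors against conventional cells, 56 against FOXP3lo progenitors, 25 for FOXP3lo progenitors against conventional cells and 3 for the interaction, and Cox7a1 in mature Tregs against conventional cells was the single named call lost. Depth limits Cox7a1 and the 7 members below the filter. The spread of the Bst2+ libraries enters a common fit, so adjusted p for that gate may be too small.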
